A study of Mus musculus with 20 samples.

Results

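The comparison described here sets cultures at days 19 to 23 of differentiation against cultures of the same lines and experiments at day 10. It was taken from a series of small RNA sequencing libraries, in which microRNAs (miRNAs) were counted as mouse embryonic stem cells became epiblast stem cells. Libraries were chosen by their labels alone, 4 from day 10 and 4 from days 19 to 23, which makes 8 of the 20 libraries of the series, and only the 1063 miRNAs listed for both lines were used. The male line E14 and the female line PGK were each followed in experiments named diff2 and diff3, and a line in an experiment is called a culture below, so 4 cultures had a library at each stage.

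The day 10 group held 1 library of each culture. The later group held female diff2 at day 23, female diff3 at day 21, male diff2 at day 21 and male diff3 at day 19. All 8 libraries came from cells that had left 2i medium, in which inhibitors keep embryonic stem cells naive, and had grown since then on fibronectin, split regularly, in N2B27 medium that held Activin A and Fgf2, and the labels call all of them ESCs-EpiSCs. Each sex was 1 line, so sex and line cannot be told apart. The stages of a culture share a line and an experiment name, and the labels do not say whether the later cells descend from the very cells sampled at day 10. With the line as block, the p-values below measure the spread of the 8 libraries after line and stage are accounted for. With each culture as block, they measure the spread of the change between these 4 cultures, which that fit takes as independent.

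A miRNA is a short RNA that guides Argonaute proteins to messenger RNAs, mainly through pairing of its seed, the bases 2 to 8 counted from its 5′ end, and the messages bound are repressed. Primed epiblast cells form an epithelium that can give rise to mesoderm and mesenchyme. The miR-200 family is known as a guard of the epithelial state through repression of Zeb1 and Zeb2, the miR-302 and miR-290 clusters as seed-sharing clusters of pluripotent cells, and miR-199a and miR-214 as products of the mesenchymal transcript Dnm3os.

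Mature sequences came from RefSeq (GRCm38.p6), in which 602 of the 745 miRNAs tested were found, 8 of them under a renamed entry. Shown first are the miRNAs that carry the called falls, each 5′ to 3′ with the seed in capitals. They come from chromosome 6 (miR-141 and miR-200c) and, as their relatives, from chromosome 4 (miR-200a, miR-200b and miR-429). By the seed of the 3p arm they form a group with AACACUG and a group with AAUACUG, and each group holds a member of each chromosome:
miR-141-3p: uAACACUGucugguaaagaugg
miR-200a-3p: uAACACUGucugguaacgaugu
miR-200c-3p: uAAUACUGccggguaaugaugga
miR-200b-3p: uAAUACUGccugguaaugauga
miR-429-3p: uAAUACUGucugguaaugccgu
miR-141-5p: cAUCUUCCagugcaguguugga
miR-200a-5p: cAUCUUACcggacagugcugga

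Counted from the 5′ end, miR-141-3p differs from miR-200c-3p by C4U within the seed and by U9C, U11G and A17U outside it, and it differs from miR-200a-3p only by A17C and G22U. The next set holds miRNAs that rose in at least 1 of the fits over both lines. The sequences of miR-199a-3p and miR-199b-3p are identical, so their reads cannot be told apart and the split between the names depends on the counting.
miR-199a-3p: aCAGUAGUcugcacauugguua
miR-199b-3p: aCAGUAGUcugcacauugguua
miR-199a-5p: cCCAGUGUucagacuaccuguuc
miR-214-3p: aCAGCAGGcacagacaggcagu
miR-214-5p: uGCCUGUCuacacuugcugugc
miR-483-3p: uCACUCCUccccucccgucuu

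Members of the miR-302 and miR-290 clusters are shown for their common seed, AAGUGCU, and 3 miRNAs because their change differed between the experiments.
miR-302b-3p: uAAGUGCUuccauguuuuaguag
miR-302d-3p: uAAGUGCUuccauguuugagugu
miR-295-3p: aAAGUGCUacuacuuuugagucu
miR-21a-5p: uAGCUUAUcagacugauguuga
miR-146a-5p: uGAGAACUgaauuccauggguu
miR-92b-3p: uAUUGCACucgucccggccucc

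Both arms of a miRNA come from 1 hairpin. On GRCm38.p6 the hairpins of the chromosome 6 pair, on the minus strand with both arms in capitals, are
Mir141: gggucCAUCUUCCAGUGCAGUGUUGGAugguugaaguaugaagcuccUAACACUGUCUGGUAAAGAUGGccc
Mir200c: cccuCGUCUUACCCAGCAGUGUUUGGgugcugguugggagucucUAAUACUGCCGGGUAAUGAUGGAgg

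The 8 libraries held 7112394 to 18031067 miRNA counts, and 887 to 919 miRNAs were detected in each. Between 46.5% and 54.2% of a library's counts came from its 10 most abundant miRNAs. After a filter on low counts 745 miRNAs were tested, and 55 had no count in any of the 8 libraries. Levels below are CPM (miRNA counts scaled to one common library size, here by the TMM method), and differences are log2 changes from day 10 to days 19 to 23 ± SE, from edgeR's quasi-likelihood test with Benjamini-Hochberg adjustment over all 745. A count of 0 allows up to 3 counts, which is 0.166 to 0.422 CPM of the plain library total, and such floors cover counting error only.

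Both diff2 libraries of day 10 stood apart before any test. Their TMM factors were 0.753 (female) and 0.659 (male), against 0.987 to 1.19 in the other 6 libraries, and their titles in the labels follow another pattern than those of the other 6. A first principal component with 36.2% of the variance placed them at -10.4 and -19.5, and the male diff3 library of day 10 at -7.41. The female diff3 library of day 10 lay at 4.30, close to the 4 later libraries, which lay between 4.93 and 13.7. Values without these libraries are given below for the called miRNAs and the lists described at length, from a fit with the line as block that was chosen after seeing the data. Replicates of a line and stage correlated at 0.977 to 0.985 over miRNAs, which are not independent, and their counts differed by at least 328.5 chi-square units per degree of freedom, far more than sampling noise.

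With the line as a block, as the comparison was set up, 4 of 745 miRNAs (0.537%) passed an adjusted p of 0.05: both arms of miR-141 and miR-200c-3p fell, and miR-483-3p rose. At an unadjusted p under 0.05 there were 50 higher (6.71%) and 96 lower (12.9%). With each line and experiment as its own block, the paired fit below, the same 4 and 11 others passed (15 of 745, 2.01%), 7 higher and 8 lower. The 11 added calls depend on pairing the stages by experiment name, and deviations from the group means correlated at only 0.0451 (female) and 0.0328 (male) between the stages of a culture. All 15 moved the same way in all 4 cultures, but the paired fit chose them by these same differences, so this is no separate support. For 10 of them the 4 later libraries did not overlap the 4 of day 10. The paired calls added both arms of miR-199a, miR-199b and miR-214 among the higher miRNAs, and miR-200a-3p, miR-200a-5p, miR-429-3p, miR-302d-3p and miR-302a-3p among the lower. Of these, miR-199a-3p and miR-199b-3p are identical in sequence and are 1 measurement entered under both names. Across all tested miRNAs the groups did not overlap for 20 with all later libraries higher (2.68%) and for 39 with all later libraries lower (5.23%). DESeq2 called 60 miRNAs, 20 higher and 40 lower, with all 4 among them. Scaling by plain totals moved the median change of all miRNAs from -0.09 to 0.35 and the share with a positive change from 44.0% to 75.3%, and 2 calls were left, miR-141-3p and miR-200c-3p.

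**Figure D1:**
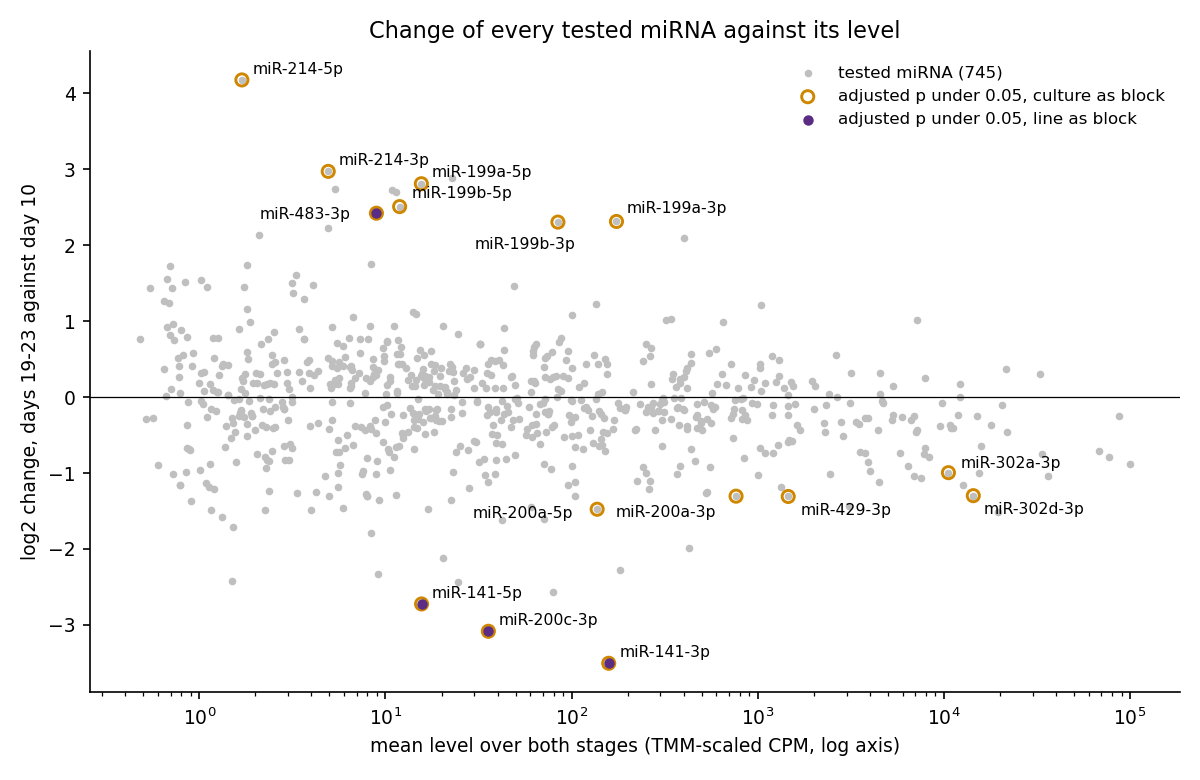
Log2 change from day 10 to days 19-23 (vertical axis) against the mean TMM-scaled CPM of both stages (log axis), 1 grey point per tested miRNA (745). Filled points are the 4 calls with the line as block and open circles the 15 calls with each culture as block. The 3 arms of the pair of miR-200c and miR-141 lie lowest among the named miRNAs, and the circled miRNAs above 0 are miR-483-3p and the miR-199 and miR-214 arms.

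The pair of miR-200c and miR-141 made up all 3 called falls. Mir141 (chromosome 6, 124717914 to 124717985) and Mir200c (124718322 to 124718390) have starts 408 bp apart on the minus strand in an intron of Gm15884, and Mir141 also overlaps an exon of Gm29008. At day 10, miR-141-3p stood at 274 CPM in female diff2, 319 in female diff3, 331 in male diff2 and 239 in male diff3, and at the later stage at 29.6, 17.5, 29.3 and 26.4 CPM in the same order. Every later library lay far below every day 10 library, and the 4 later values were close to each other. The mean level went from 291 ± 42.5 to 25.7 ± 5.64 CPM (SD, n = 4), a log2 change of -3.50 ± 0.26 (edgeR adjusted p = 7.59e-05), or 11.3-fold lower. Its companion miR-200c-3p stood at 78.9, 67.5, 47.0 and 61.4 CPM at day 10 (the same order of cultures) and at 5.04, 5.96, 11.4 and 8.40 CPM later. The groups again did not overlap, and the change was -3.08 ± 0.33 (adjusted p = 0.0012). The passenger arm miR-141-5p went from 29.6, 38.9, 18.5 and 21.9 to 5.04, 2.08, 6.01 and 2.95 CPM, with a change of -2.72 ± 0.42 (adjusted p = 0.0158). The other arm, miR-200c-5p, had 35 counts in all 8 libraries and was not tested.

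Within single lines, miR-141-3p and miR-200c-3p passed in the male line (2 of 745, 0.268%) and these with miR-141-5p in the female line (3 of 745, 0.403%). For miR-200c-3p the log2 change was -2.45 in E14 and -3.73 in PGK. The difference of -1.28 had an unadjusted p of 0.0366 and an adjusted p of 0.999, so a difference between the lines was not shown. Without both diff2 libraries of day 10, miR-141-3p and miR-200c-3p still passed, while miR-141-5p changed by -2.86 with an adjusted p of 0.0582. Dropping the female day 23 or the male day 19 library also ended the call of miR-141-5p (adjusted p 0.0884 and 0.108), and so did scaling by plain totals (0.115). With 1 library per line and stage, miR-141-3p changed by -3.19 in diff2 alone and by -3.67 in diff3 alone.

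The relatives on chromosome 4 were far more abundant and were lower by less. Mir429 (chromosome 4, 156053905 to 156053987), Mir200a (156054896 to 156054985) and Mir200b (156055681 to 156055750) lie on the minus strand in an intron of Ttll10. All 6 tested arms had negative changes (median -1.21, against -0.09 for all tested miRNAs). Of these arms 5 were at an unadjusted p under 0.05, none past the adjusted threshold with the line as block and 3 in the paired fit. Over all 745 tested miRNAs 12.9% were lower at that unadjusted p and 8 fell in the paired fit. The level of miR-200a-3p was 908, 835, 1848 and 772 CPM at day 10 and 371, 370.0, 537 and 473 CPM later. The groups did not overlap, though the male diff2 library of day 10 was far above the other 3. The paired change was -1.24 ± 0.24 (adjusted p = 0.0446, and 0.0595 with the line as block). For miR-429-3p the values were 2198, 1486, 3199.6 and 1427 CPM and then 821, 695, 963 and 868 CPM, with a paired change of -1.24 ± 0.23 (adjusted p = 0.0446). The arm miR-200a-5p had a paired change of -1.38 ± 0.26 (adjusted p = 0.0446), and the most abundant arm, miR-200b-3p, went from 6167 ± 2735 to 2839 ± 562 CPM without passing (paired adjusted p = 0.0756). Without both diff2 libraries of day 10 the changes were -0.86 for miR-200a-3p, -0.77 for miR-429-3p and -0.73 for miR-200a-5p, with adjusted p-values of 0.193, 0.235 and 0.432, and the median of the 6 arms was -0.72. Within diff3 alone, with 1 library per line and stage, the changes of these 3 arms were -0.93, -0.89 and -1.06 in the same order.

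Because each seed is shared across the chromosomes, the pools of equal seeds changed in makeup. Of the AACACUG pool, miR-141-3p made up 15.2% to 27.7% at day 10 (mean 22.4% ± 5.23, n = 4) and 4.52% to 7.38% later (5.59% ± 1.24). The pool itself, miR-141-3p with miR-200a-3p, held 1382 ± 537 CPM at day 10 and 464 ± 84.8 CPM later. Of the AAUACUG pool, miR-200c-3p made up 0.881% ± 0.361 at day 10 and 0.207% ± 0.0536 later, and the pool went from 8308 ± 3545 to 3684 ± 672 CPM. These shares describe the levels above and are no separate test.

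**Figure D2:**
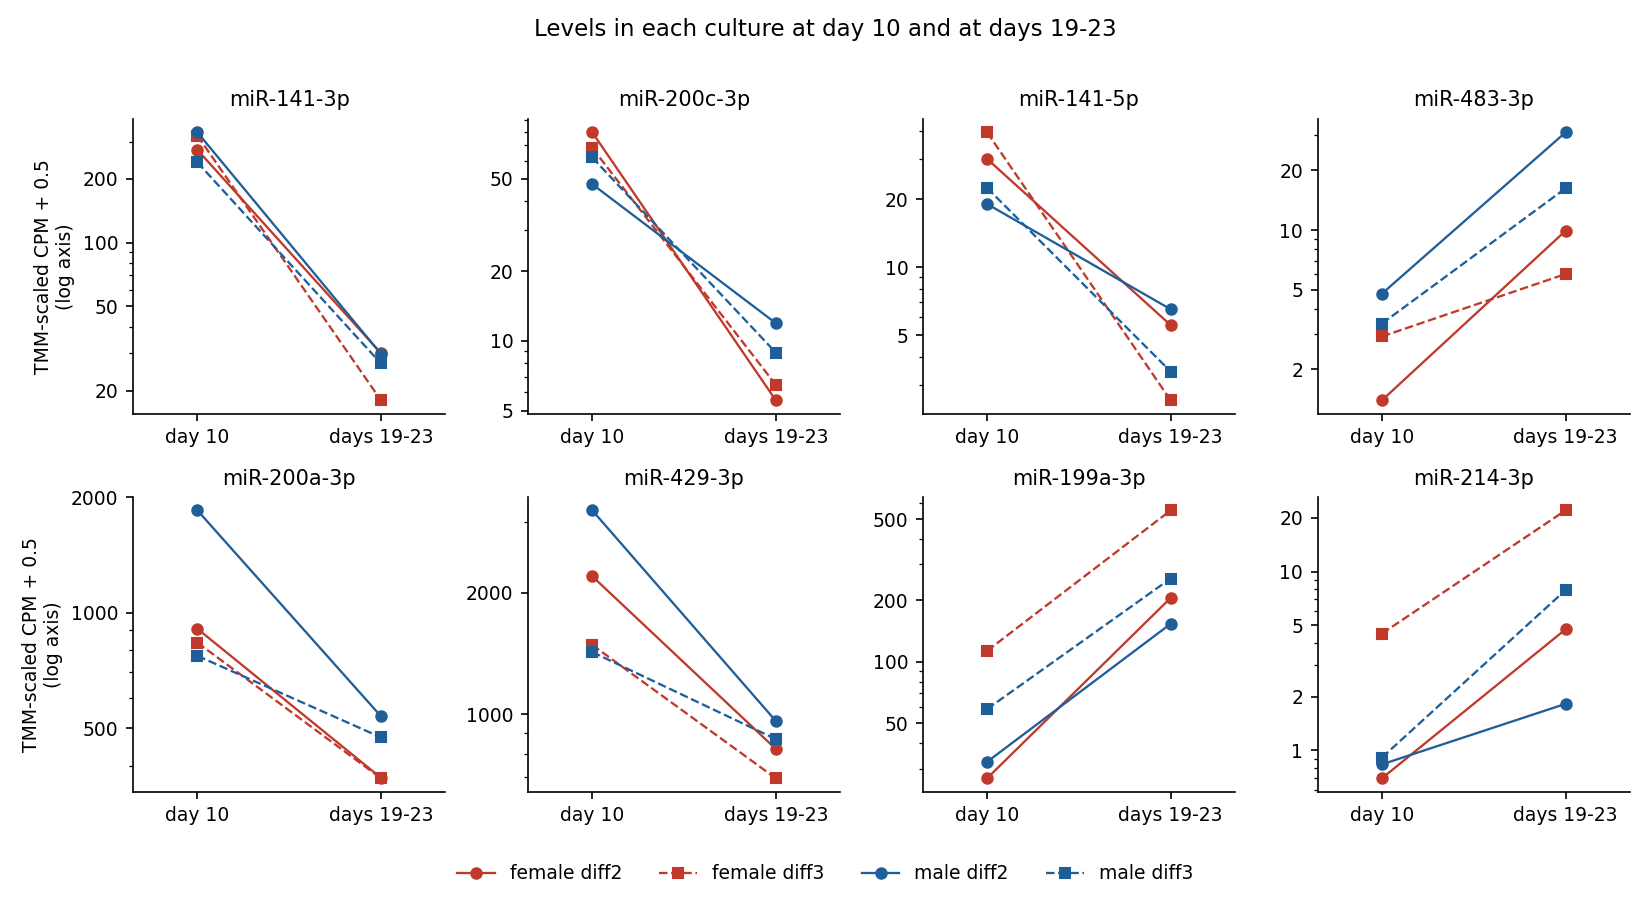
TMM-scaled CPM + 0.5 (log axis) of 8 miRNAs at day 10 and at days 19-23, with 1 line per culture (red female, blue male, circles diff2, squares diff3). The 3 arms of the pair of miR-200c and miR-141 go down in every culture, miR-200a-3p and miR-429-3p go down from unequal day 10 levels, and miR-483-3p, miR-199a-3p and miR-214-3p go up in every culture.

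The only miRNA that rose with the line as block was miR-483-3p. It comes from an intron of Igf2 (chromosome 7, 142654924 to 142654996, minus strand), the imprinted gene of a fetal growth factor. It was rare at day 10, with 0.897 CPM in female diff2, 2.42 in female diff3, 4.29 in male diff2 and 2.89 in male diff3, and stood at 9.41, 5.51, 30.4 and 15.7 CPM later. The groups did not overlap and both male libraries of each stage were above both female ones. The change was 2.42 ± 0.42 (adjusted p = 0.036), or 5.35-fold. The other arm, miR-483-5p, moved from 0.598, 1.12, 3.20 and 1.24 to 4.37, 1.81, 21.4 and 5.72 CPM and did not pass (2.23 ± 0.57, adjusted p = 0.0867). The call of miR-483-3p was weak, though the change kept its direction in all alternatives, from 1.83 to 3.23. The edgeR adjusted p was above 0.05 under plain-total scaling (0.0537) and with all 20 libraries in the fit (0.0848). The call was also lost without both diff2 libraries of day 10, where the change was 2.32. It ended too on leaving out any of 6 single libraries. These were both diff2 and the male diff3 libraries of day 10, both diff2 later libraries and male day 19. Within single experiments the change was 3.23 in diff2 and 1.83 in diff3.

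The miR-199 and miR-214 miRNAs were higher in every culture, and all 6 arms passed in the paired fit but not with the line as block. Mir199a-2 (chromosome 1, 162217814 to 162217923) and Mir214 (162223368 to 162223477) lie on the plus strand in exons of Dnm3os, antisense to an intron of Dnm3, with starts 5554 bp apart. A second copy, Mir199a-1 (chromosome 9, from 21496495), is antisense to an intron of Dnm2, and Mir199b (chromosome 2, from 32318460) to an intron of Dnm1. At day 10, miR-199a-3p stood at 26.4 CPM in female diff2, 113 in female diff3, 31.9 in male diff2 and 58.2 in male diff3, and later at 205, 551, 153 and 255 CPM. In either line the diff3 library was higher than the diff2 library at both stages, and the lowest later library was above the highest of day 10. The paired change was 2.41 ± 0.24 (adjusted p = 0.00293), against 2.31 ± 0.49 with the line as block (adjusted p = 0.0595). The identical sequence listed as miR-199b-3p gave 2.40 ± 0.26 in the paired fit, and both names are 1 measurement.

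Less ambiguous is miR-199b-5p, whose sequence is not shown here. It went from 0.698, 5.96, 2.02 and 5.64 to 20.27, 20.95, 20.92 and 18.82 CPM, so that the later libraries nearly coincided (paired change 2.80 ± 0.55, adjusted p = 0.0446). For miR-214-3p the values were 0.199, 4.00, 0.337 and 0.413 CPM and then 4.26, 21.5, 1.32 and 7.38 CPM. The female diff3 culture was highest at both stages, and its day 10 value overlapped the later range. The paired change was 3.07 ± 0.51 (adjusted p = 0.0296). The arm miR-214-5p had no count in 3 of the 4 libraries of day 10 and 8 counts in the female diff3 library, against 13, 94, 3 and 27 counts later, so its paired change of 4.33 ± 0.71 (adjusted p = 0.0296) depends on how a 0 is treated. The arm miR-199a-5p had a paired change of 2.90 ± 0.53 (adjusted p = 0.0437). Without both diff2 libraries of day 10 none of the 6 arms passed, though all were higher: the change was 1.797 for miR-199a-3p (adjusted p = 0.176), 1.84 for miR-199b-5p (0.0582) and 2.25 for miR-214-3p (0.432). Within diff3 alone, with 1 library per line and stage, all 6 were higher, by 2.22 for miR-199a-3p, 1.79 for miR-199b-5p and 3.02 for miR-214-3p. P-values of the fits within 1 experiment rest on 4 libraries and are not given.

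The list of mesenchymal and fibroblast markers was mostly higher at the later stage, but not as a whole. Of its 11 tested members 9 had positive changes (median 2.30), 6 rose in the paired fit and 4 had all later libraries higher. Each of these numbers counts miR-199a-3p and miR-199b-3p separately, though they are 1 measurement. Over all 745 tested miRNAs 44.0% had positive changes, 7 rose in the paired fit and 2.68% had all later libraries higher. Without both diff2 libraries of day 10 the median was 1.82. The myofibroblast and smooth muscle miRNA miR-143-3p, with 865 ± 383 CPM at day 10 and 1182 ± 475 later, was not called (0.44 ± 0.38, adjusted p = 0.521). The abundant miR-21a-5p and its partner miR-21a-3p lay on the other side of 0 (-1.51 and -1.99). Summed, the list took 1.86% to 3.68% of the counts at day 10 and 0.705% to 2.13% later, a total made up mostly of miR-21a-5p. In bulk cultures a larger share of cells of a type and more of the miRNA per cell cannot be told apart.

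The course over all 5 stages places these changes in time. On a scale common to the 20 libraries, on which CPM are 0.816 to 0.970 of those above, miR-141-3p started from a mean of 668 CPM at day 0 and 549 CPM at day 4, stood at 253 CPM at day 10 and had 23.2 CPM by days 19 to 23 and 8.89 CPM by days 27 to 30. Its companion miR-200c-3p had 72.8, 154, 55.4, 6.86 and 3.09 CPM. The mean of miR-214-3p was 0 at days 0 and 4, then 1.13, 8.02 and 25.3 CPM. At day 0, miR-483-3p stood between 0 and 0.288 CPM, and its mean was highest in the middle window, at 13.4 CPM against 7.17 at days 27 to 30. The day 0 level of miR-199a-3p was 23.99 and 44.5 CPM in the female line and 120.9 and 345 CPM in the male line, where both values were above the day 10 range of 23.1 to 105 CPM. These means are a description, and the stages other than those compared here were not tested.

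**Figure D3:**
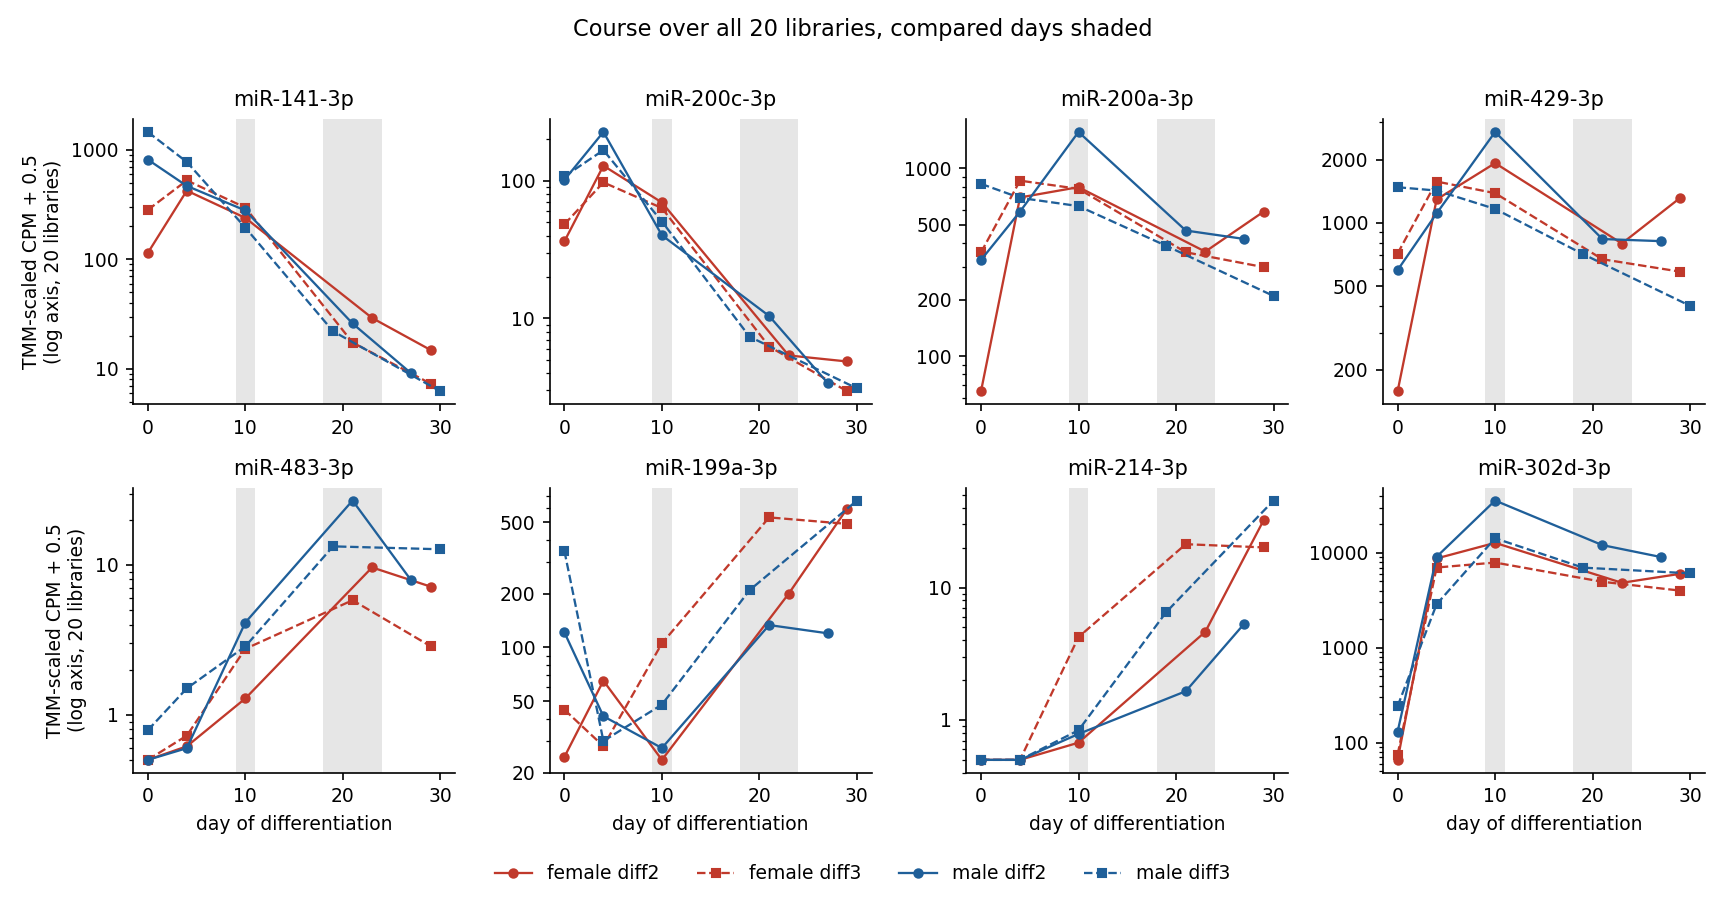
TMM-scaled CPM + 0.5 (log axis, scaled over all 20 libraries) of 8 miRNAs against day of differentiation, with 1 line per culture and the compared days shaded. The pair of miR-200c and miR-141 falls throughout after day 4, miR-214-3p is at 0 until day 4, and miR-302d-3p is highest at day 10 in every culture.

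The pluripotency clusters were lower at days 19 to 23, mostly short of the threshold. The cluster of miR-302 and miR-367 lies on chromosome 3, antisense to an intron of Larp7, and marks primed pluripotent cells. All 10 arms had negative changes (median -1.01), 8 at an unadjusted p under 0.05, and 2 fell in the paired fit. Over all 745 tested miRNAs 12.9% were lower at that unadjusted p and 8 fell in the paired fit. The level of miR-302d-3p was 14556, 8480.3, 42015 and 17452 CPM at day 10 and 4979, 5130.2, 13868 and 8546 CPM later. Every culture went down, but the levels of the male line lay above those of the female line, so the groups overlapped. The paired change was -1.23 ± 0.24 (adjusted p = 0.0446). For miR-302a-3p the mean went from 14015 ± 6964 to 7132 ± 3736 CPM (paired change -0.99 ± 0.20, edgeR adjusted p = 0.0485). Within diff3 alone the changes were -0.86 for miR-302d-3p and -0.92 for miR-302a-3p. Without both diff2 libraries of day 10 neither passed, at -0.66 for miR-302d-3p (adjusted p = 0.421) and -0.69 for miR-302a-3p (0.401), and the median of the 10 arms was -0.82. The cluster took 2.61% to 5.77% of the counts at day 10 and 1.805% to 4.54% later, so this marker of the labelled cell type was present in all 8 libraries.

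The miR-290 cluster of chromosome 7, the main cluster of naive mouse embryonic stem cells, shares the AAGUGCU seed in 3 of its 3p arms. All its 14 tested arms had negative changes (median -0.86), 13 at an unadjusted p under 0.05 and 7 with all later libraries lower, but none passed in either fit. Over all tested miRNAs 12.9% were lower at that unadjusted p and 5.23% had all later libraries lower. The most abundant, miR-295-3p, stood at 74382 to 128800.0 CPM at day 10 and 30886 to 67219 CPM later (-0.79 ± 0.26, adjusted p = 0.146). The female day 23 library was lowest for 14 of 14 arms. Of the whole library the cluster took 13.8% ± 3.07 at day 10 and 10.3% ± 3.12 later. Under plain-total scaling the medians of the miR-302 and miR-290 clusters were smaller but kept their sign, at -0.58 and -0.42. Without both diff2 libraries of day 10 the median of the miR-290 cluster was -0.75.

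Other clusters tied to epithelial and differentiated states were read from lists in the same way. The cluster of miR-183, miR-96 and miR-182 had 6 of 6 arms negative (median -0.69, and -0.36 without both diff2 libraries of day 10), and its miR-182-5p, the most abundant miRNA of day 10, went from 129659 ± 48659 to 70732 ± 12924 CPM without a call (adjusted p = 0.146). The family of miR-34, known as a target of p53, and miR-449 had 7 of 7 negative (median -0.98, none called). Within diff3 alone that median was -0.20, against -1.30 within diff2, a difference that was not tested, and without both diff2 libraries of day 10 it was -0.51. The let-7 family, which promotes differentiation, had 14 of 17 positive (median 0.31, none called), against 44.0% of all tested miRNAs. Its entries let-7a-1-3p and let-7c-2-3p had identical counts and are 1 measurement. The list of miR-99, miR-100 and miR-125 had 7 of 9 positive (median 0.66, none called). Within it miR-100-5p went from 26.2 ± 13.3 to 71.9 ± 19.6 CPM (edgeR adjusted p = 0.104). Hox cluster miRNAs, which are known from posterior patterning, had a median of 1.85 in 6 tested members, 4 positive and 2 negative, none called. The Hoxb cluster miRNA miR-10a-5p stood at 4.78, 9.31, 2.69 and 5.64 CPM at day 10 and at 58.1, 26.8, 5.65 and 69.2 CPM later (2.88 ± 0.68, adjusted p = 0.0819).

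No member of the remaining lists was called in either fit of the change over both lines. Some entries had identical counts in all 8 libraries, such as miR-466a-3p with miR-466e-3p and miR-297b-3p with miR-297c-3p of the Sfmbt2 intron. The muscle markers miR-1a-2-5p and miR-1b-3p did so too. Numbers of members below are therefore not numbers of separate measurements. Over all tested miRNAs 44.0% had positive changes. Medians were 0.29 for the Sfmbt2 intron (46 of 55 positive), 0.24 for the miR-181 family, 0.10 for miR-26, -0.0047 for the X-linked cluster of miR-322, miR-503 and miR-351, -0.09 for the imprinted Dlk1-Dio3 region (101 tested), -0.12 for miR-148 with miR-152, -0.13 for miR-130 with miR-301, -0.17 for miR-17-92 and relatives, -0.18 for miR-29, -0.20 for miR-15 with miR-16, -0.31 for miR-30 and -0.42 for the clusters of miR-23, miR-27 and miR-24. Markers of other cell types had medians of -0.13 (neural, 19 tested), -0.53 (muscle, 5), -0.47 (endoderm and liver, 5), -0.20 (blood, 8) and -0.29 (endothelial, 2), and the liver miRNA miR-122-5p had 3 counts in all 8 libraries. The endocrine and endoderm miRNA miR-375-3p went the other way from its list, from 4761 ± 2605 to 9500.0 ± 2325 CPM, with all later libraries higher and no call (adjusted p = 0.266). The neural miR-9-5p went from 744 ± 365 to 329 ± 167 CPM (adjusted p = 0.104). Under plain-total scaling the signs of medians this near 0 can turn, as for miR-17-92 (0.26), while those of the miR-302, miR-290, miR-183, miR-200, miR-34, testis, let-7, miR-99, Hox and mesenchymal lists did not.

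**Figure D4:**
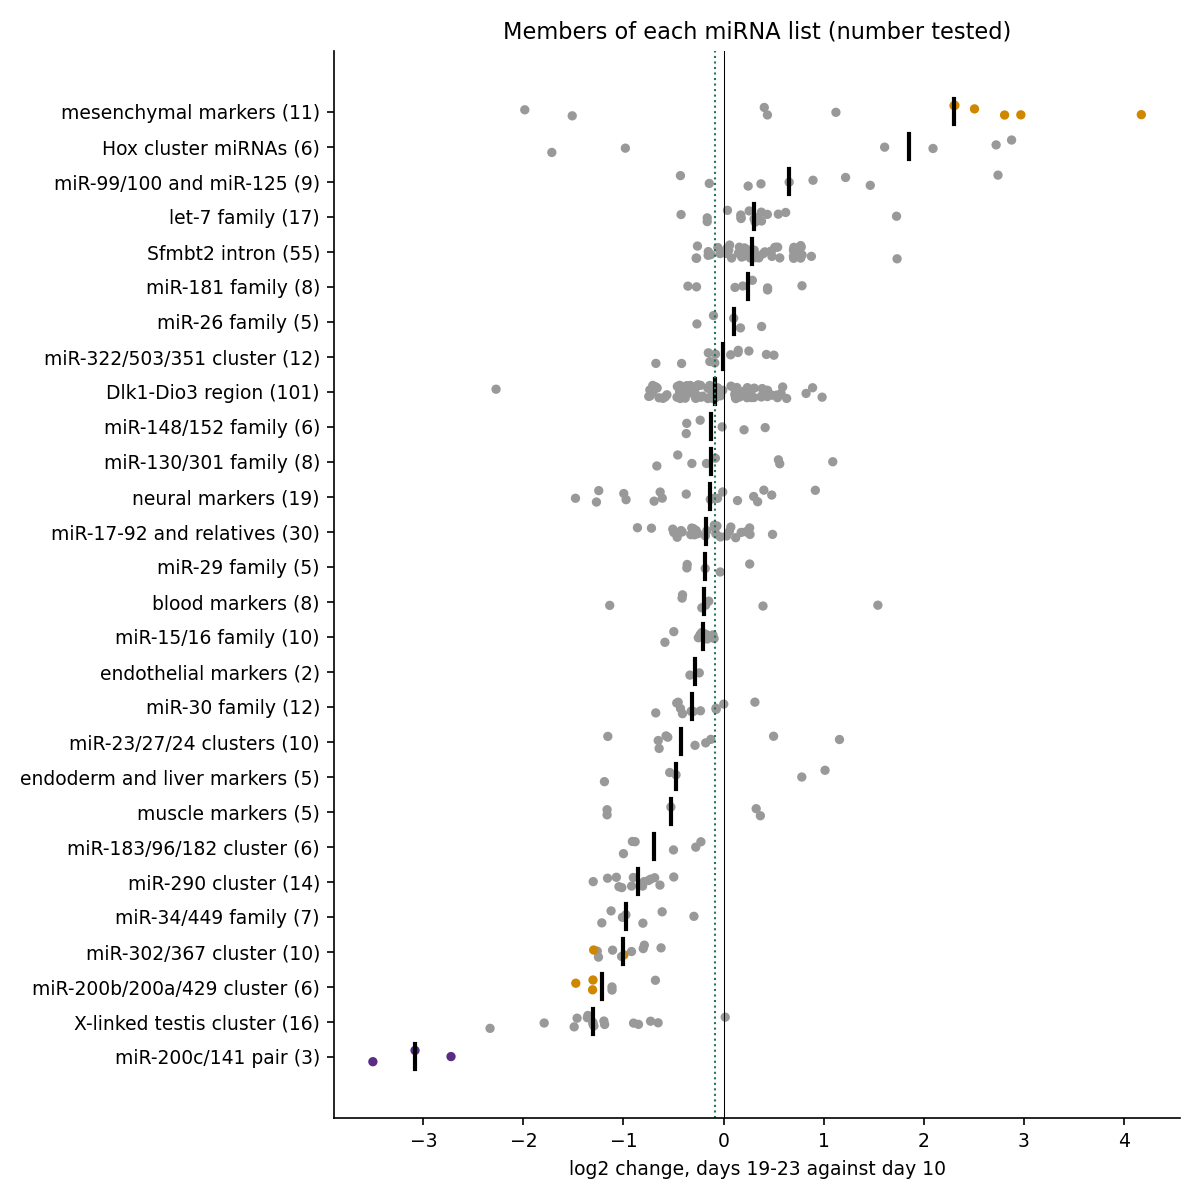
Log2 change from day 10 to days 19-23 of every tested member of 28 lists, 1 point per miRNA and a black bar at the list's median, with the dotted line at the median of all 745. Purple points passed with the line as block and orange points only with each culture as block. Coloured points lie in 4 lists: the pair of miR-200c and miR-141, the cluster of miR-200b, miR-200a and miR-429, miR-302 with miR-367 and the mesenchymal markers.

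The lines were then compared. No miRNA passed the test of the difference between the changes of both lines (0 of 745 by edgeR, 23 at an unadjusted p under 0.05, and 0 by DESeq2, 32 unadjusted). The paired fit called 6 miRNAs in the male line (0.805%) and 17 in the female line (2.28%), so these lists are not shown to differ between the lines. Among the 17 in the female line 8 belonged to the testis cluster of the X chromosome (GRCm38, from 66801508), and all 8 were lower. Their leading member by p, miR-871-5p, stood at 52.2 and 9.87 CPM in the female diff2 and diff3 libraries of day 10 and at 5.71 and 1.54 CPM later (paired change -2.95 ± 0.56, adjusted p = 0.0182), while the male libraries held 0.964 to 1.18 and then 0.369 to 0.721 CPM. The 2 entries miR-465b-3p and miR-465c-3p are identical in sequence and count as 1 measurement. The median change of the cluster's 16 tested members was -2.25 in PGK and 0.47 in E14, where most levels were near the floor.

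Also in the female line, miR-99a-5p of the Mir99ahg intron on chromosome 16 rose in the paired fit, from 0.199 and 1.49 to 3.70 and 26.5 CPM (4.14 ± 0.68, adjusted p = 0.00862). In the male line the paired fit called miR-196b-5p of an exon of Hoxa9 (5.45 ± 0.88, adjusted p = 0.0158), with 0 and 0.688 CPM at day 10 and 2.40 and 24.7 CPM later. The female libraries already held 1.20 and 18.1 CPM of it at day 10. The male paired calls also held miR-1941-3p (4.51 ± 0.87, adjusted p = 0.0415), which went from 0.168 and 0.275 to 7.45 and 3.04 CPM, while PGK cells held 1.20 and 1.30 and then 2.46 and 0.813 CPM. Though called in 1 line only, miR-99a-5p was higher in all 4 cultures. The male libraries held 14 and 14 raw counts of it at day 10 and 17 and 63 later. For miR-196b-5p the female libraries held 12 and 194 raw counts at day 10 and 74 and 345 later. These miRNAs rest on few counts, and edgeR's test of the difference between lines gave unadjusted p-values of 0.0854 (miR-99a-5p), 0.0621 (miR-196b-5p) and 0.00385 (miR-1941-3p).

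The experiments were compared in the same way. Their later libraries were not of the same day: diff2 was sampled at day 23 (female) and day 21 (male), diff3 at day 21 and day 19. At the later stage, experiment and day therefore cannot be told apart, while the day 10 libraries of both experiments were of the same day. For 4 miRNAs (4 of 745, 0.537%) the change in diff3 exceeded that in diff2, and all 4 were much lower after day 10 in diff2. In diff2, the female level of miR-21a-3p went from 845 to 90.7 CPM and the male level from 1262 to 87.4 CPM, and in diff3 they went from 267 to 299 CPM and from 343 to 204 CPM. At day 10 both diff2 libraries were above both diff3 libraries, and at the later stage both were below them. The difference of the log2 changes was 3.29 ± 0.44 (edgeR adjusted p = 0.0238). Its partner miR-21a-5p, widely expressed and raised in fibroblasts and tumours, went from 28578 and 53237 to 4650.1 and 7603 CPM in diff2 and from 16386 and 17964 to 15226 and 12194 CPM in diff3 (2.43 ± 0.41, adjusted p = 0.0493). Both arms come from Mir21a in an exon of Vmp1 (chromosome 11, 86584067 to 86584158).

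The inflammation-linked miR-146a-5p went from 172 and 244 to 6.94 and 20.9 CPM in diff2 and from 34.6 and 95.8 to 26.0 and 39.4 CPM in diff3 (difference 3.22 ± 0.52, adjusted p = 0.0418). For miR-92b-3p, which has the seed of miR-92a-3p, the diff2 values were 3232 and 10364 CPM at day 10 and 852 and 2320.5 later, and the diff3 values 2083 and 4926 and then 2400.3 and 5261 CPM (2.20 ± 0.31, adjusted p = 0.0238). Both diff2 libraries of day 10 are those with the low TMM factors, and without them diff2 has no day 10 library, so the difference has no value without them. Under plain-total scaling 5 miRNAs passed, 1 higher and 4 lower in diff3, and 1 of the 4 was among them, while the share of all miRNAs with a positive difference went from 49.4% to 27.2%. The count also depended on single libraries: it was 0 without the female diff3 library of day 10, the male diff3 library of day 10 or the female day 21 library, and 38 without the female diff2 library of day 10.

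**Figure D5:**
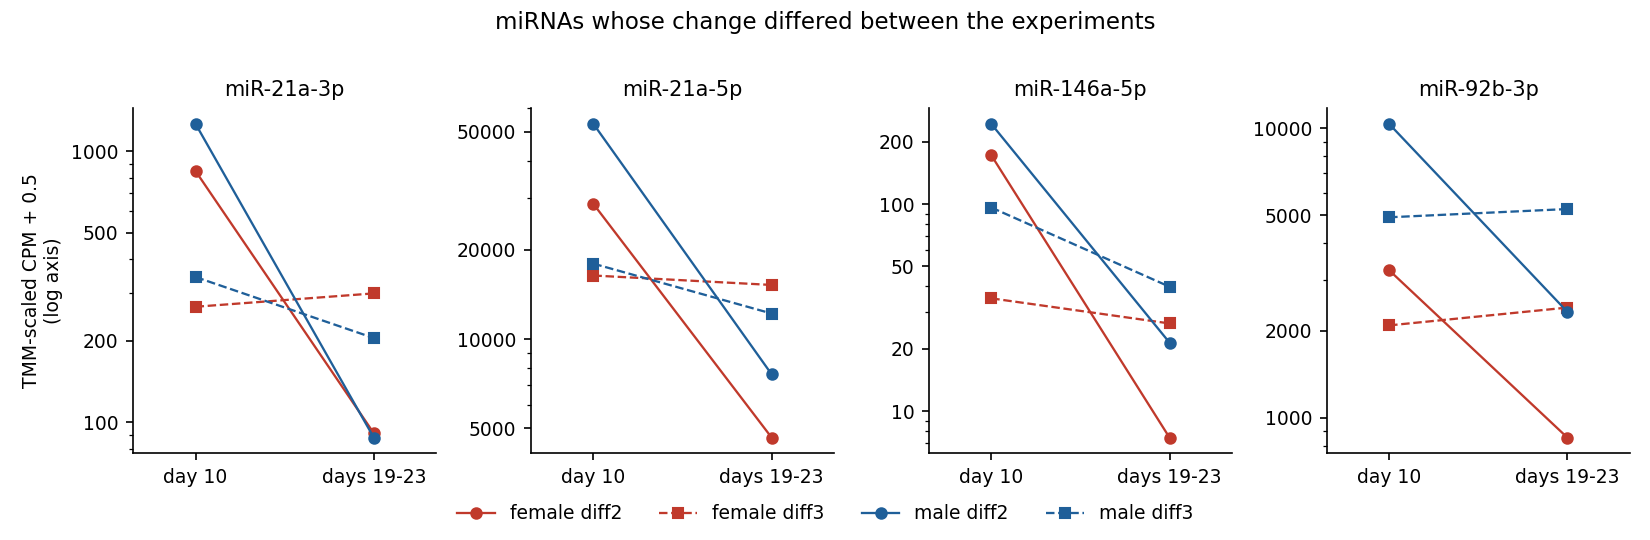
TMM-scaled CPM + 0.5 (log axis) of the 4 miRNAs whose change differed between the experiments, with 1 line per culture. The diff2 cultures (circles, solid lines) go down steeply in both lines, and the diff3 cultures (squares, dashed lines) change little or go down less.

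Several other miRNAs were named by a rule that asked for the same sign in all 4 cultures, so that sign is no separate support. None of them passed either fit. Higher at the later stage were miR-674-3p (225 ± 79.2 to 456 ± 60.8 CPM), the Hoxd3 and Hoxd4 intron miRNA miR-10b-5p (179.6 ± 147 to 624 ± 510.5 CPM), miR-340-3p (49.2 ± 10.3 to 75.0 ± 18.02 CPM), and both arms of miR-708 from an intron of Tenm4. Lower were miR-222-5p (64.6 ± 22.0 to 20.5 ± 8.54 CPM, adjusted p = 0.0735), and miR-302c-5p (313 ± 164 to 137 ± 55.9 CPM, adjusted p = 0.0595). A further pair, both arms of Mir1199 on chromosome 8 (84011515 to 84011633, an exon of 2210011C24Rik), falls outside the naming rule and was chosen after its values were seen. Its miR-1199-5p stood at 41.5, 21.4, 78.9 and 23.9 CPM at day 10 and at 7.17, 8.49, 3.37 and 10.6 CPM later, with no overlap (-2.44 ± 0.50, adjusted p = 0.0595).

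The most abundant miRNAs kept their places for the most part. By mean level at day 10 the first 10 were miR-182-5p, miR-295-3p and miR-92a-3p, then the imprinted miR-127-3p, miR-541-5p, miR-411-5p and miR-434-3p of the Dlk1-Dio3 region, and miR-22-3p, miR-298-5p and miR-21a-5p. At days 19 to 23 miR-92a-3p, of the growth-promoting miR-17-92 cluster, led with 79596 ± 9928 CPM (95011 ± 8088 at day 10, adjusted p = 0.482). Of the first 10, miR-21a-5p had left and miR-99b-5p had entered, at 18728 ± 3679 CPM at day 10 and 24223 ± 7064 later (adjusted p = 0.441).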

How the data were processed

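The authors deposited 1 table of raw counts per line, and 8 of the 20 libraries were used. Per the labels' protocols, RNA taken in Trizol was extracted with phenol and chloroform, treated with DNase and made into Illumina libraries. The submitters' processing notes name CASAVA 1.8.2, DESeq2, GRCm38 and mm10. Which aligner and which miRNA annotation were used, and how reads matching several copies were treated, is not given in the sources used here. Normalized and variance-stabilized tables were not used.

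Samples were grouped by line, day and experiment name. Counts were fitted in R 4.3.3 with edgeR 4.0.16 and limma 3.58.1: TMM scaling, filterByExpr by group (99.9945% of counts kept), and quasi-likelihood tests with the line as block, 5 residual degrees of freedom, a dispersion of 0.133 and an adjusted p threshold of 0.05. Each line, the difference between lines and that between experiments were tested likewise. SE is the log2 change over the root of F. The stages of a culture share a line and an experiment name in the labels, which do not say that they are 1 continued culture, and a fit with each line and experiment as block (the paired fit) is given where it changes a call. Deviations from group means correlated at 0.0451 (female) and 0.0328 (male) between the stages of a culture, and at 0.363 (day 10) and 0.426 (days 19 to 23) between lines within an experiment. The libraries of an experiment at a stage thus varied together across lines, which neither the fit with the line as block nor the paired fit allows for. The paired fit takes the changes of the 4 cultures as independent, so its p-values may be too small.

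Alternatives were RLE and plain-total scaling, dropping the filter, a minimum mean of 10 CPM, DESeq2 1.42.0, the culture block, all 20 libraries, each experiment alone and leaving out each library, where the one left in its group is taken to vary as the others do. Each experiment alone has 1 library per line and stage, so p-values and numbers of calls from these fits rest on 4 libraries. The fit without both diff2 libraries of day 10 was added after seeing the data. The comparison, the 28 lists and the naming rule were chosen with earlier results of these data known. The rule named calls with at least 10 CPM in the higher stage (the 12 largest per direction, filled to 10 by smallest unadjusted p among miRNAs with at least 50 CPM and the same direction in all 4 cultures), up to 5 differences per direction, the 10 most abundant per stage and up to 4 members per list. Host genes came from the GENCODE annotation of GRCm38. The fits were tested on simulated data.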

Additional observations from a re-analysis of the deposited data

Results flagged for a closer look

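For 4 miRNAs the change from day 10 to days 19 to 23 differed between the experiments by a test of the interaction, with the log2 change of diff3 exceeding that of diff2 by 3.29 (miR-21a-3p), 2.20 (miR-92b-3p), 3.22 (miR-146a-5p) and 2.43 (miR-21a-5p). In each line the later diff2 library was of a later day than that of diff3, so experiment and day cannot be told apart at the later stage. The day 10 libraries of both experiments were of the same day.

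Among the miRNAs called or named for their change, 3 of 56 groups of 4 libraries held a library far from the others, by the size of its gap relative to the range, and about 1 in 20 such groups would by chance. The male diff2 library of day 10 had 674 CPM of miR-370-3p, against 1018 to 1092 in the other 3. The female diff3 library of day 10 had 4.00 CPM of miR-214-3p, against 0.199 to 0.413, and 0.745 CPM of miR-214-5p, which had no count in the other 3.

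The miRNAs listed only for the female line were not compared. They held 12 counts in its 4 libraries, at most 4 for 1 miRNA, miR-675-5p, just above the 3 that a count of 0 allows.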

How the results depend on the processing

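The 4 calls of the change over both lines remained under RLE scaling and a mean of at least 10 CPM, and 3 of them with all 20 libraries in the fit. In the female line 2 calls were left under RLE scaling and 2 with plain totals. The number of calls was 2 with plain totals, 16 with no filter (8 higher, 8 lower), 60 by DESeq2, 15 with the replicate block (the paired fit), 0 within diff2, 27 within diff3 and 2 without both diff2 libraries of day 10. Leaving out 1 library gave 2 to 19 calls, with 19 without the female diff3 library of day 10 or the female day 21 library, 8 without the male diff3 library of day 10, and 2 without female day 23 or male day 19. Male calls (2) were 0 with plain totals, 16 with no filter, 34 by DESeq2, 6 with the replicate block, and 0 to 4 with 1 library left out (0 without male day 21 or male day 19, 1 without the male diff3 library of day 10 or any female library, 4 without the male diff2 library of day 10). Female calls (3) were 10 with no filter, 18 by DESeq2, 17 with the replicate block, and 0 to 2 with 1 library left out (0 without female day 21). Calls between experiments (4) were 2 under RLE scaling, 9 with no filter, 7 at a mean of at least 10 CPM, 26 by DESeq2, and 0 to 38 with 1 library left out, as given above. Calls between lines were 0 in every alternative that was run for them. No call reversed its direction. MiRNAs near 3 counts a library have little precision.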
